A study of Mus musculus with 8 samples.

Results

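Goblet cells of the airway lining make mucus, and 10 genes of that program were followed here in mouse lung: Muc5ac, Muc5b, Clca1, Spdef, Foxa3, Agr2, Fcgbp, Tff2, Itln1 and Gcnt3. They were chosen by name as goblet cell genes, with earlier results of these data known. The counts of called genes below therefore describe these 10 and are not independent support. Each gene was found on the array through the RefSeq accession of its probes. The array gave a usable signal for 28992 genes or unnamed transcripts, and these 10 were among them. The 10 genes had 12 probes in all, of which 11 had a signal well above background in both mice of 1 or more groups. The second Gcnt3 probe did not, on any of the 8 arrays. For 7 of the 10 genes the brightest probe was well above background in every mouse. Clca1, Foxa3 and Gcnt3 entered the test only through mice given allergen, so a difference from the untreated mice was built into their selection.

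The study asked whether a feed that carries an immunostimulatory DNA protects mice from allergic airway disease. Whole lungs of 8 female BALB/c mice were profiled, 1 mouse per single-color array, with 2 mice in each of 4 groups. All mice were bought at 4 weeks of age, kept for 2 weeks and then fed freely for 70 days. NT mice received standard feed and no allergen. Ctrl-F mice received standard feed, and they were injected into the abdomen with 1 μg ovalbumin (OVA) on 2 mg aluminum oxide gel (alum) on Days 42, 49 and 56, then breathed an aerosol of 2% OVA for 30 min a day from Day 63 to Day 69. Cap-F mice had the same OVA treatment and a feed with 1 mg of carbonate apatite particles per g. ODNcap-F mice had the same OVA treatment and 1 mg per g of the same kind of particle loaded with MsST, a phosphorothioated class B CpG-oligodeoxynucleotide. Lungs were taken the day after, on Day 70, at 24 h from the final aerosol. The NT group therefore differs from Ctrl-F in OVA and alum together, and no group was fed particles without OVA. Values are log2 signals, quantile normalized over the 8 arrays, on which a step of 1 is a doubling. The share of probes well above background ran from 61.3% to 65.0% per array, and no spot was saturated. The lung label was checked against alveolar type 2 cell markers, and all 6, with the surfactant gene Sftpc among them, were well above background in every mouse. NT and Ctrl-F arrays lay in one row of the slide and Cap-F and ODNcap-F arrays in the other, so that a row effect and the feed cannot be told apart across these rows.

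Mucus is a gel built from very large secreted glycoproteins, the gel-forming mucins, which are folded in the endoplasmic reticulum, coated with sugar chains in the Golgi and stored in granules. In the airway of a healthy mouse goblet cells are rare and the secretory cells are mostly club cells. When interleukin-4 and interleukin-13 act on them through the transcription factor STAT6, club cells can take on a mucous form, in a program that Spdef and Foxa3 help to drive and Foxa2 opposes. In whole lung RNA, fewer cells of a type and less RNA per cell cannot be told apart.

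Promoter sequence is shown for the transcription factors Spdef and Foxa3 and for Agr2, the gene with the largest difference between ODNcap-F and Ctrl-F. All 10 genes moved together over the OVA mice in the data below, so that does not set these apart. The sequences are the 250 bases before a RefSeq transcript start in GRCm38.p6, written 5′ to 3′ on the strand of the gene, with the letters TATAAA in capitals where they occur.
Spdef, chr17:27728952-27729201, minus strand: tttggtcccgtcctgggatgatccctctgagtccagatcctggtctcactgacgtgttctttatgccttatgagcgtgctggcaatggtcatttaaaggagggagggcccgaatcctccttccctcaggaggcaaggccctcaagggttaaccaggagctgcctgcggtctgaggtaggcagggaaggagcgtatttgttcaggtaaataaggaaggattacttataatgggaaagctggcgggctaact
Foxa3, chr7:19023540-19023789, minus strand: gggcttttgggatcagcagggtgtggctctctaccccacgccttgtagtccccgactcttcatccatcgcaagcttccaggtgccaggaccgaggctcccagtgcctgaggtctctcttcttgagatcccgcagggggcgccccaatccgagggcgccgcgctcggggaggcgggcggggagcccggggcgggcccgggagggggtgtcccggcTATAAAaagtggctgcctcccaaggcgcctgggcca
Agr2, chr12:35992675-35992924, plus strand: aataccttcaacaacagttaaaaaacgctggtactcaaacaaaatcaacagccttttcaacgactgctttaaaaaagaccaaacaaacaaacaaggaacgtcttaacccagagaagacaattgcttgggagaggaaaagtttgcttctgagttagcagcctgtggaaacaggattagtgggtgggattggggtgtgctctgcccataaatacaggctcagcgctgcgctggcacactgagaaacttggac
The Spdef start used by RefSeq here lies inside the annotated span of the gene, chr17:27714446-27731003. Windows from 250 bases before to 50 bases after the start were also held for Fcgbp and Itln1, which makes 5 of the 10 genes. Of 32817 such windows over all genes, 6.94% hold the STAT6 motif (TTC and GAA parted by 4 bases), 3.65% the FOXA letters TGTTTAC and 5.99% the SPDEF letters CGGATG on either strand. None of the 5 windows holds any of them, which says only that these letters are not in these windows. TATAAA, searched on both strands after the windows had been read, is in 13.6% of all windows and in that of Foxa3, with its first letter 36 bases before the start.

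All 10 mucus genes were higher in each of the 3 OVA groups than in NT. The OVA groups also had alum, and Cap-F and ODNcap-F also differ from NT in particles and in slide row, so these cannot be told apart. In the limma fit over all probes, each of the 10 was called higher (Benjamini-Hochberg adjusted p under 0.05 and more than 2-fold) in each of the 3 OVA groups than in NT. Over all genes, 10.5% were called higher and 12.2% lower in Ctrl-F than in NT, 9.74% and 9.87% in Cap-F, and 9.86% and 10.8% in ODNcap-F. Among the 7 genes measured in every mouse, 7 were called higher in each of these comparisons. Both OVA mice lay above both NT mice for all 10 genes in each comparison, a pattern that 35.5% of all genes showed for Ctrl-F, 34.3% for Cap-F and 34.2% for ODNcap-F. The median log2 difference of the 10 genes from NT was 3.60 for Ctrl-F, 4.28 for Cap-F and 4.67 for ODNcap-F, beside -0.116, -0.108 and -0.122 over all genes. These 3 comparisons share the NT mice. With 2 mice a group, p-values reflect only the spread among these mice, and an exact permutation of a single gene's values cannot give a two-sided p below 0.333.

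**Figure D1:**
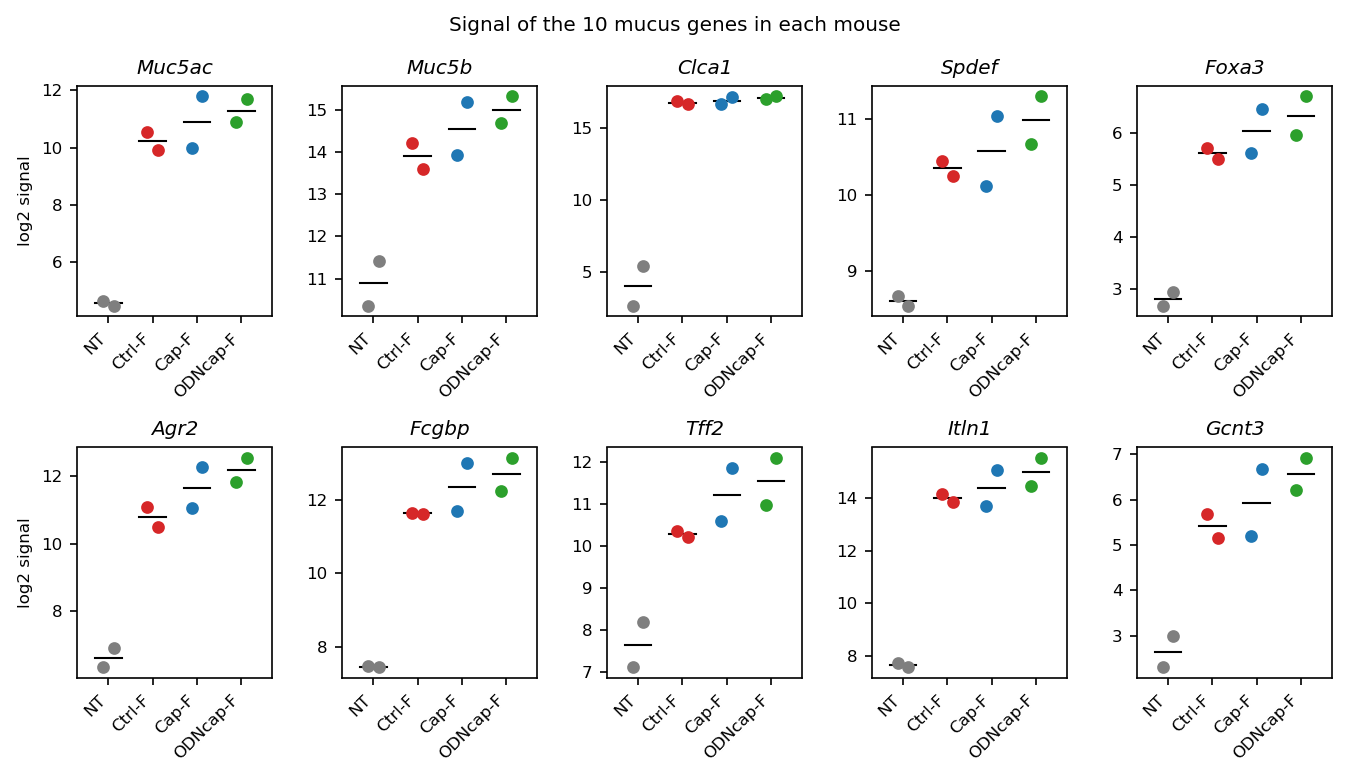
Log2 signal (vertical axis, quantile normalized) of the brightest probe of each of the 10 genes in each mouse, by group; points are mice (mouse 1 left, mouse 2 right), lines are group means, and each panel has its own axis. Both NT mice sit below the 6 OVA mice in every panel, and Cap-F mouse 2 and ODNcap-F mouse 2 are the highest points.

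The gel-forming mucins come first. Muc5ac (NM_010844), the mucin most tied to goblet cells of the airway surface, read 4.63 and 4.48 in the NT mice, 10.54 and 9.93 on Ctrl-F, 9.99 and 11.79 on Cap-F, and 10.88 and 11.71 on ODNcap-F. Its log2 difference of Ctrl-F from NT was 5.68 ± 0.60 (SE, n = 2 and 2, limma adjusted p = 0.000531), or 51.2-fold. Every OVA mouse was far above both NT mice, and of the Cap-F mice, mouse 1 lay between the Ctrl-F mice and mouse 2 above both. Muc5b (NM_028801), the mucin that also serves routine mucus clearance, was well above background in untreated lung, at 10.36 and 11.41. It read 14.21 and 13.60 on Ctrl-F, 13.92 and 15.18 on Cap-F, and 14.68 and 15.32 on ODNcap-F. The rise from NT to Ctrl-F was 3.02 ± 0.54 (limma adjusted p = 0.00415), and the other Muc5b probe gave 3.0 ± 0.51. Both probes thus showed the same direction and nearly the same size.

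Clca1 (NM_017474), a protease secreted with the mucins that helps to shape the mucus gel, showed the widest range. It was not well above background in NT mouse 1, at 2.65, and read 5.38 in NT mouse 2. In the OVA mice it read 16.91 and 16.68 on Ctrl-F, 16.70 and 17.19 on Cap-F, and 17.06 and 17.23 on ODNcap-F. The difference of Ctrl-F from NT was 12.79 ± 0.81 (limma adjusted p = 9.08e-05), with 1 of the 2 NT values at background. The 6 OVA mice lay between 16.68 and 17.23, the narrowest range among the 10 genes. These readings lie near the top of the scale, and whether that narrows the range was not tested.

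Of the transcription factors, Spdef (NM_013891) had the smallest rise of the 10 genes. It read 8.67 and 8.55 in the NT mice, 10.45 and 10.25 on Ctrl-F, 10.12 and 11.04 on Cap-F, and 10.67 and 11.29 on ODNcap-F. Its difference of Ctrl-F from NT was 1.74 ± 0.33 (limma adjusted p = 0.00535), or 3.34-fold. Foxa3 (NM_008260), a forkhead factor of goblet cell differentiation, was not well above background in either NT mouse. It read 5.72 and 5.51 on Ctrl-F, 5.62 and 6.47 on Cap-F, and 5.97 and 6.71 on ODNcap-F. Measured against the lowest signal well above background on the NT arrays, Foxa3 was at least 3.97-fold higher in Ctrl-F (limma adjusted p = 0.000927), at least 5.35-fold in Cap-F and at least 6.56-fold in ODNcap-F. With another background correction (normexp), its difference of Ctrl-F from NT shrank from 2.81 to 0.80 and was no longer past 2-fold.

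Of the 10 genes, Agr2 and Gcnt3 act in the making of mucin. Agr2 (NM_011783), a protein disulfide isomerase of the endoplasmic reticulum needed for mucin production, read 6.34 and 6.90 in the NT mice, 11.08 and 10.51 on Ctrl-F, 11.06 and 12.28 on Cap-F, and 11.84 and 12.55 on ODNcap-F. The Ctrl-F mice exceeded the NT mice by 4.17 ± 0.47 (limma adjusted p = 0.000677). Gcnt3 (NM_028087), which branches the O-linked sugar chains of mucins, was not well above background in NT. It read 5.69 and 5.16 on Ctrl-F, 5.19 and 6.68 on Cap-F, and 6.22 and 6.92 on ODNcap-F. Gcnt3 was at least 3.48-fold higher in Ctrl-F than in NT (limma adjusted p = 0.00578), at least 4.97-fold in Cap-F and at least 7.69-fold in ODNcap-F. With normexp its Ctrl-F difference fell from 2.78 to 0.62, under 2-fold, and in Cap-F both it and Foxa3 also lost the call.

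Of the other secreted proteins, Fcgbp (NM_001122603), a mucus component that binds mucins and the Fc part of IgG, was nearly equal in the NT mice, at 7.48 and 7.45, and in the Ctrl-F mice, at 11.65 and 11.62. It read 11.70 and 12.99 in Cap-F and 12.25 and 13.14 in ODNcap-F. Its Ctrl-F difference from NT was 4.18 ± 0.46 (limma adjusted p = 0.000594). Itln1 (NM_010584), a lectin that binds microbial sugars, read 7.74 and 7.58 in the NT mice, 14.15 and 13.85 on Ctrl-F, 13.68 and 15.05 on Cap-F, and 14.47 and 15.52 on ODNcap-F. It rose by 6.34 ± 0.51 in Ctrl-F (limma adjusted p = 0.000201), or 80.7-fold, the largest rise among the 7 genes measured in every mouse. Tff2 (NM_009363), a small trefoil peptide that is secreted with mucins, differed by 1.07 between the NT mice, at 7.12 and 8.19. It read 10.36 and 10.20 on Ctrl-F, 10.59 and 11.85 on Cap-F, and 10.98 and 12.09 on ODNcap-F. Its Ctrl-F difference from NT was 2.63 ± 0.58 (limma adjusted p = 0.0094) and lost its call without NT mouse 1, at 2.10 and an adjusted p of 0.051.

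**Figure D2:**
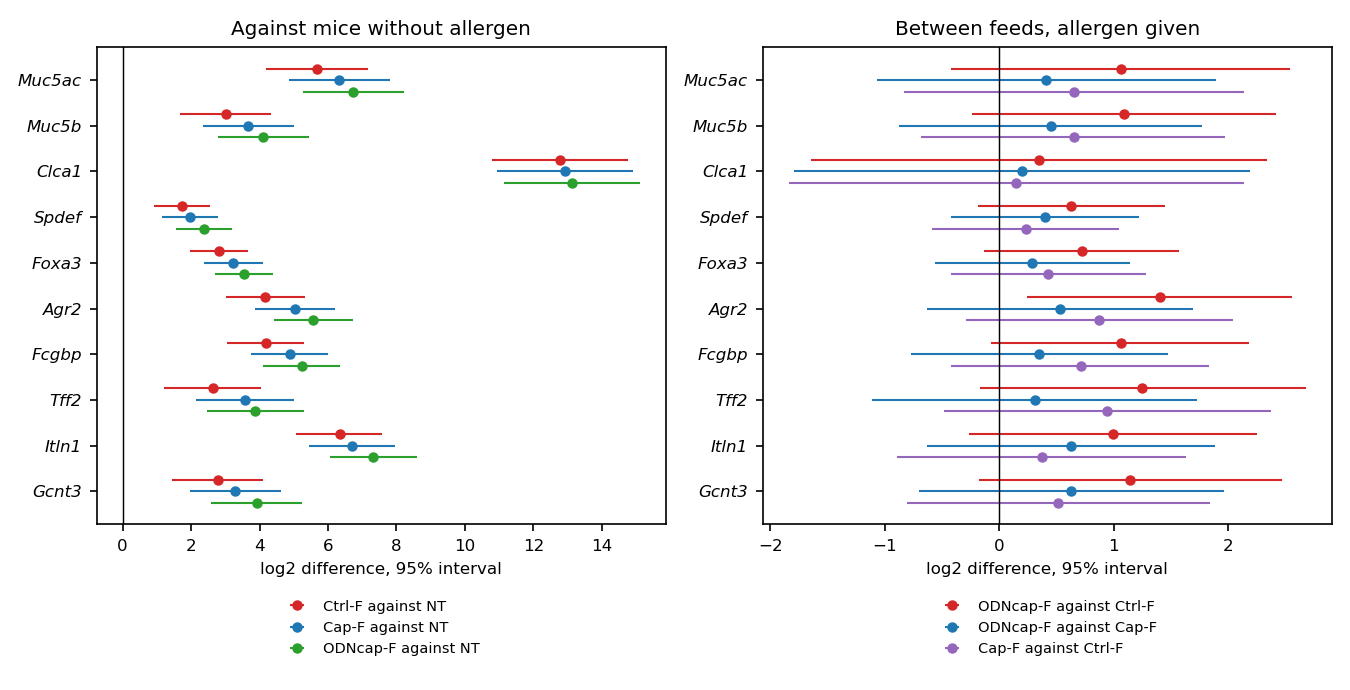
Log2 differences between groups (horizontal axis) with 95% intervals from limma for the 10 genes, on the left for each OVA group against NT and on the right for the 3 comparisons of feeds among OVA mice; the 2 panels have different scales. On the left every interval lies above 0, and on the right Agr2 in ODNcap-F against Ctrl-F, from 0.24 to 2.56, is the interval that leaves out 0.

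Between feeds, none of the 10 genes was called. The means were ordered NT, Ctrl-F, Cap-F, ODNcap-F from low to high for all 10 genes, but neighbouring feeds were not called different. ODNcap-F was compared with Ctrl-F to ask whether the loaded particles lowered the mucus genes. All 10 were higher, not lower, in the mean of ODNcap-F. ODNcap-F and Ctrl-F lay in different slide rows, so row and feed cannot be told apart here. The median difference was 1.06 on the log2 scale, with a range from 0.35 for Clca1 to 1.40 for Agr2. Both ODNcap-F mice lay above both Ctrl-F mice for each of the 10 genes, a pattern of 17% of all genes. More than 2-fold higher in the mean were 6 of the 10, which are Muc5ac, Muc5b, Agr2, Fcgbp, Tff2 and Gcnt3, against 0.717% of all genes. Limma called 0 of the 10, and 0% of all genes either way, with adjusted p from 0.74 to 0.962. At an unadjusted p under 0.05 in limma, 1 of the 10 was higher, Agr2, beside 3.69% of all genes. Its limma adjusted p was 0.74. The study's local-pooled-error test, which takes the spread from probes of like intensity rather than from the gene itself, called the 6 genes past 2-fold, beside 0.317% of all genes called higher.

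The 95% intervals for ODNcap-F against Ctrl-F show how wide the measurement is. They ran from -0.42 to 2.54 for Muc5ac, from -0.24 to 2.42 for Muc5b and from -0.19 to 1.45 for Spdef. For Clca1 the interval ran from -1.64 to 2.34. Over the 10 genes the lower bounds lay between -1.64 and 0.24 and the upper bounds between 1.45 and 2.68, so that 9 of the 10 intervals hold 0 and all 10 hold a 2-fold rise. Leaving out ODNcap-F mouse 2 gave a median difference of 0.63, and leaving out ODNcap-F mouse 1 gave 1.49. The difference stayed above 0 for each gene whichever mouse was left out.

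Markers of other airway cells differed in the same direction between these groups. All 6 ciliated cell markers (Foxj1, Tppp3, Ccdc153, Dynlrb2, Sec14l3 and Dnah5) and 5 of 6 club cell markers lay higher in both ODNcap-F mice than in both Ctrl-F mice, and none was called. Over all genes, 17% showed this pattern. Some margins were small, as for Cyp2f2 (14.83 in Ctrl-F mouse 2, 14.84 in ODNcap-F mouse 1) and Cbr2 (16.77 and 16.81 in the same mice). The median difference was 0.44 over the 6 ciliated and 0.29 over the 6 club cell markers. The remaining club cell marker, Scgb1a1, read 17.60 and 17.52 on Ctrl-F and 17.60 in both ODNcap-F mice, a tie to 2 decimals with Ctrl-F mouse 1. It lies near the top of the scale, where quantile normalization gives every array the same values, so this tie says little. The mean log2 levels of both lists were 11.82 to 11.96 in Ctrl-F and 12.17 to 12.49 in ODNcap-F for ciliated cells, and 15.11 to 15.16 and 15.33 to 15.66 for club cells. Every one of these 12 markers was well above background in every mouse. Of 6 pan-epithelial markers, 5 lay higher in both ODNcap-F mice, by a median of 0.22 over the 6. Alveolar type 2 markers differed by a median of 0.00 and eosinophil markers by -0.01. The part of the other airway cells in the difference of the mucus genes was not tested.

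Against Cap-F, the group fed the empty particles, ODNcap-F was again higher in the mean of all 10 genes, by a median of 0.40 (0.20 for Clca1 to 0.63 for Itln1 and Gcnt3). Here the mice overlapped for all 10 genes, whereas both ODNcap-F mice lay above both Cap-F mice for 21% of all genes. Limma called 0 of the 10 and 0.00345% of all genes, and neither an unadjusted p under 0.05 nor the local-pooled-error test called any of the 10. Without Cap-F mouse 1 the median turned to -0.12, and without Cap-F mouse 2 it was 1.04. The widest intervals were those of Clca1, from -1.79 to 2.19, and Muc5ac, from -1.07 to 1.89.

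Cap-F against Ctrl-F asked what the empty particles did in mice given OVA. Cap-F and Ctrl-F lay in different slide rows, so row and feed cannot be told apart here. The median difference was 0.58 (0.15 for Clca1 to 0.94 for Tff2). Fcgbp and Tff2 were the 2 genes for which both Cap-F mice lay above both Ctrl-F mice, against 25.9% of all genes, and the other 8 overlapped. None of the 10 was called, by limma, at an unadjusted p under 0.05 or by the local-pooled-error test, and limma called 0.00345% of all genes. Without Cap-F mouse 2 the median fell to -0.05, and without Cap-F mouse 1 it rose to 1.27. Against the mean of the other 2 OVA groups, ODNcap-F was higher by a median of 0.75 (0.27 to 0.96), with overlap for all 10 genes, none called by any of these tests and 0.0069% of all genes called by limma.

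Within Cap-F the 2 mice differed by a larger median than any 2 feeds did. In that group, mouse 2 exceeded mouse 1 for 10 of 10 genes, by a median of 1.26 (0.48 for Clca1 to 1.80 for Muc5ac), and 7 of the 10 differed by more than 2-fold. In ODNcap-F, mouse 2 was higher for 10 of 10, by a median of 0.73 (0.18 to 1.11). In Ctrl-F it was the reverse, with mouse 2 lower for 10 of 10 by a median of 0.27. Over all genes, mouse 2 was the higher one for 46.2% in Cap-F, 48.2% in ODNcap-F and 48.5% in Ctrl-F, and no more than 2.00% differed by over 2-fold in any group. The NT mice had no shared direction, since mouse 2 was higher for 6 of 10. The highest value of all 8 mice belonged to ODNcap-F mouse 2 for 9 of the 10 genes and to Cap-F mouse 2 for Muc5ac.

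**Figure D3:**
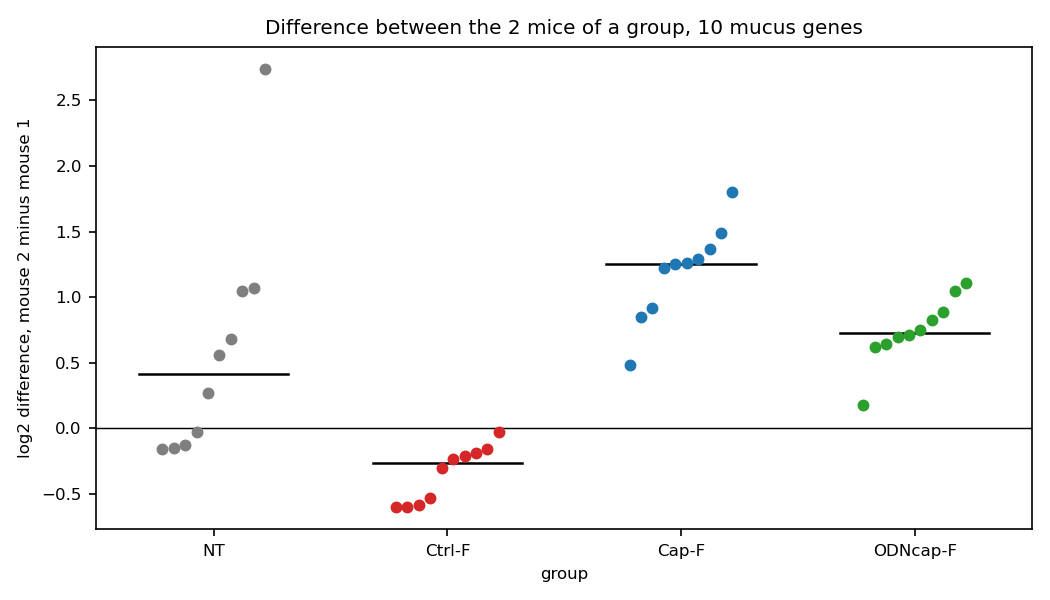
Log2 difference between the 2 mice of each group (vertical axis, mouse 2 minus mouse 1) for the 10 genes, by group; points are genes and lines are medians. All 10 points lie above 0 in Cap-F, around a median of 1.26, and in ODNcap-F, around 0.73, and all 10 lie below 0 in Ctrl-F.

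The 10 genes rose and fell together over the 6 OVA mice. Pearson r between 2 of the genes over these 6 mice lay between 0.903 and 0.999 for the 45 pairs, with a median of 0.965. This is a description without a test, since the 6 mice come from 3 groups and share a slide. The mean of the 10 genes, each centred on its own average, served as the profile for a search of 15472 other named genes well above background in all 6 mice. The closest were Cdhr3 and Mgat3 (r = 0.996), Ly6g6e (0.995), Dynlrb2, Tppp3, Dnaic1, Riiad1, Elmod1 and Sypl (0.993), and Cfap299 (0.992). Pearson r does not show the size of a change, and Sypl spanned only 0.08 on the log2 scale over these mice, beside 1.52 for the mean of the 10 genes. Cdhr3 encodes a cadherin of ciliated airway cells, Dynlrb2 and Dnaic1 encode parts of dynein motors, and Tppp3 binds tubulin. Of the 15472 genes, 418 had an r above 0.9.

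Several of these genes followed the mucus profile among the OVA mice and yet lay highest in NT. Cdhr3 read 9.99 and 10.18 in the NT mice, 9.02 and 8.79 on Ctrl-F, 8.89 and 9.72 on Cap-F, and 9.32 and 9.73 on ODNcap-F. Its OVA mice were all below the NT mice, and within Cap-F and ODNcap-F mouse 2 was again the higher. Tppp3 read 15.68 and 15.65 in NT and between 13.65 and 14.18 in the OVA mice, in which the order of the mice was close to that of the mucus genes. With the NT mice included, the closest of 16564 genes over 8 mice were Ern2 (r = 0.999) and Adra2a, Ly6g6e, Alox12e and Capn9 (0.997). Over 8 mice the step from NT to OVA sets most of r, and 2751 genes passed 0.9.

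**Figure D4:**
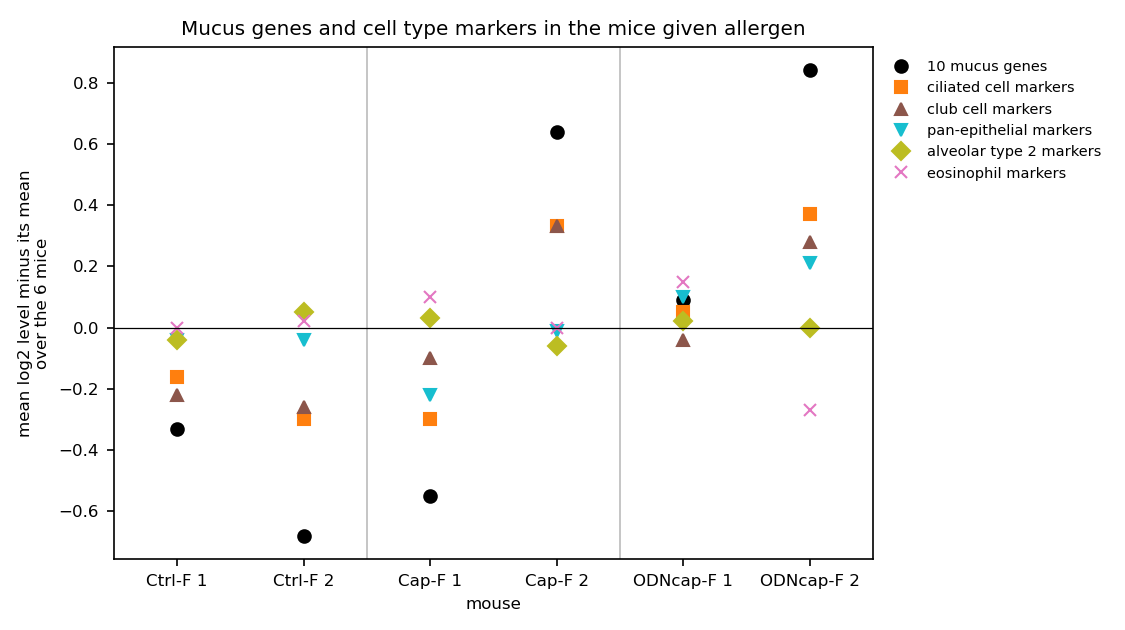
Mean log2 level of the 10 mucus genes and of 5 cell type marker lists in each of the 6 OVA mice (vertical axis), as the difference from the mean of the same list over the 6 mice; grey lines part the groups. The mucus genes run from -0.68 in Ctrl-F mouse 2 to 0.84 in ODNcap-F mouse 2, and the ciliated and club cell markers are also highest in mouse 2 of Cap-F and of ODNcap-F.

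Marker levels moved with the mucus genes between mice of a group as well. The ciliated cell markers stood at -0.30 from their own mean over the 6 OVA mice in Cap-F mouse 1 and at 0.33 in Cap-F mouse 2. The mucus genes stood at -0.55 and 0.64 in the same mice. Club cell markers stood at -0.10 and 0.33, and alveolar type 2 markers at 0.03 and -0.06. Their part in the spread of the mucus genes between mice was not tested.

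Other mucins did not follow the gel-forming ones as a group. Of 10 listed, 6 had a probe and 5 were tested. For this list and those below, 9.74% to 10.5% of all genes were called higher than NT and 9.87% to 12.2% lower. No list was tested against these shares. Muc4, a membrane-bound mucin, was called higher than NT in all 3 OVA groups, by 1.46 with Ctrl-F, 1.52 with Cap-F and 2.05 with ODNcap-F (limma adjusted p = 0.00102, 0.00099 and 0.00032). Muc2, the gel-forming mucin of the gut, read 4.74 and 4.92 in NT and was not well above background in any OVA mouse. It entered the test only through NT, so a lower reading in OVA mice was built into its selection. NT was at least 1.72-fold higher than Cap-F and at least 1.64-fold higher than ODNcap-F. Limma called both on OVA readings not well above background, and these bounds are under 2-fold. Muc1 and Muc20, which are membrane-bound, were not called.

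Among 13 other secreted goblet cell products, 12 had a probe and 6 were tested. Of these, 3 were called higher with Ctrl-F, 4 with Cap-F and 3 with ODNcap-F than in NT, and none lower. Over all genes, the share called higher was 9.74% to 10.5%. Retnlb, a resistin-like peptide, was not well above background in NT and read 11.10 and 10.81 on Ctrl-F, 10.41 and 11.21 on Cap-F, and 11.59 and 11.80 on ODNcap-F. It was at least 161-fold higher in Ctrl-F than in NT (limma adjusted p = 1.15e-05). Tff1, the trefoil peptide related to Tff2, was at least 34.4-fold higher in Ctrl-F, also from background. Retnlb and Tff1 entered the test only through OVA mice, so their difference from NT, and part of these counts, was built into their selection. Bpifb1, a secreted lipid-binding protein of airway mucous cells, rose by 3.91 ± 0.74 (limma adjusted p = 0.00526). Of the relatives of Clca1, Clca3a2 was called in Cap-F at 1.13, while Clca3a1 was not called and differed from NT by -0.39 to -0.57. Agr3, the close relative of Agr2, was not called either, at 8.67 and 8.47 in Ctrl-F beside 9.14 and 9.25 in NT.

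Of 16 tested signals and transcription factors of mucous differentiation, 3 were called higher in each OVA group. In the other direction, 3 were called lower in Ctrl-F and 2 each in Cap-F and ODNcap-F. The shares over all genes were 9.74% to 10.5% higher and 9.87% to 12.2% lower, so these counts are not far from them. Il4, which encodes one of the cytokines upstream of STAT6, read 5.16 and 5.42 in the NT mice, 9.11 and 9.28 on Ctrl-F, 9.14 and 8.99 on Cap-F, and 9.16 and 9.14 on ODNcap-F. The 6 OVA mice lay close together for Il4, unlike the mucus genes. Il13 was not well above background in NT and entered the test only through OVA mice, so a difference from NT was built into its selection. It was at least 2.93-fold higher with Ctrl-F, 2.39-fold with Cap-F and 2.08-fold with ODNcap-F. Between feeds, and picked after its values were seen, Il13 had the opposite order to the mucus genes, at 5.05 and 5.30 in Ctrl-F and 4.73 and 4.63 in ODNcap-F, a difference of -0.50 that was not called (limma adjusted p = 0.74). Foxa2, which restrains goblet cell differentiation, was called lower than NT in Ctrl-F, by -1.14, and in ODNcap-F, by -1.05, and in Cap-F missed the 2-fold limit at -0.97. Klf4, an epithelial differentiation factor, was called lower in all 3 groups, by -1.44 to -1.78. Foxm1, a factor of the cell cycle, was called higher in all 3, by 1.99 to 2.08. Foxa1, a relative of Foxa2 and Foxa3, was called lower in Ctrl-F, by -1.19, and in Cap-F, by -1.06. Il4ra, the receptor chain shared by both cytokines, was not called, and Nkx2-1 differed by -0.80 to -0.90, under 2-fold.

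Of 17 tested O-glycan enzymes, 4 were called higher in each OVA group, and 2 lower in Ctrl-F and 1 each in Cap-F and ODNcap-F. Beside these stand 9.74% to 10.5% of all genes called higher and 9.87% to 12.2% lower. Galnt6 and Galnt12, which add the first sugar of the O-linked chain, rose by 1.99 and 1.08 in Ctrl-F. Gcnt1, the close relative of Gcnt3, rose by 1.63, and Fut2, which adds fucose, by 1.19. B3gnt6, which makes another core of these chains, differed by -1.11 in Ctrl-F and was called lower in all 3 groups. St6galnac1, a sialyltransferase, was called lower in Ctrl-F at -1.06. Of 16 tested genes of mucin folding and secretion, 2 were called higher with Ctrl-F, 3 with Cap-F and 3 with ODNcap-F. Over all genes the shares called higher were 10.5%, 9.74% and 9.86%, so these counts are not far from them. Ern2, the stress sensor of the endoplasmic reticulum found in mucous cells, rose by 4.72 ± 0.54 in Ctrl-F (limma adjusted p = 0.000673), and the chaperone Pdia4 by 2.08. Creb3l4, a membrane-bound transcription factor, was called in Cap-F and ODNcap-F.

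Of 6 genes of chloride and bicarbonate transport, 1 was called higher and 1 lower in each OVA group. With 6 genes this is not far from the shares over all genes, 9.74% to 10.5% higher and 9.87% to 12.2% lower. Slc26a4, which encodes the anion exchanger pendrin, read 6.66 and 6.54 in NT and between 14.98 and 15.32 in the OVA mice. Its difference from NT was 8.64 ± 0.14 in Ctrl-F (limma adjusted p = 4.26e-06). Within Cap-F and within ODNcap-F, mouse 1 was the higher for Slc26a4, the reverse of the mucus genes. Slc4a4, a bicarbonate cotransporter, differed by -1.21 in Ctrl-F, and the chloride channel gene Ano1 was not called.

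**Figure D5:**
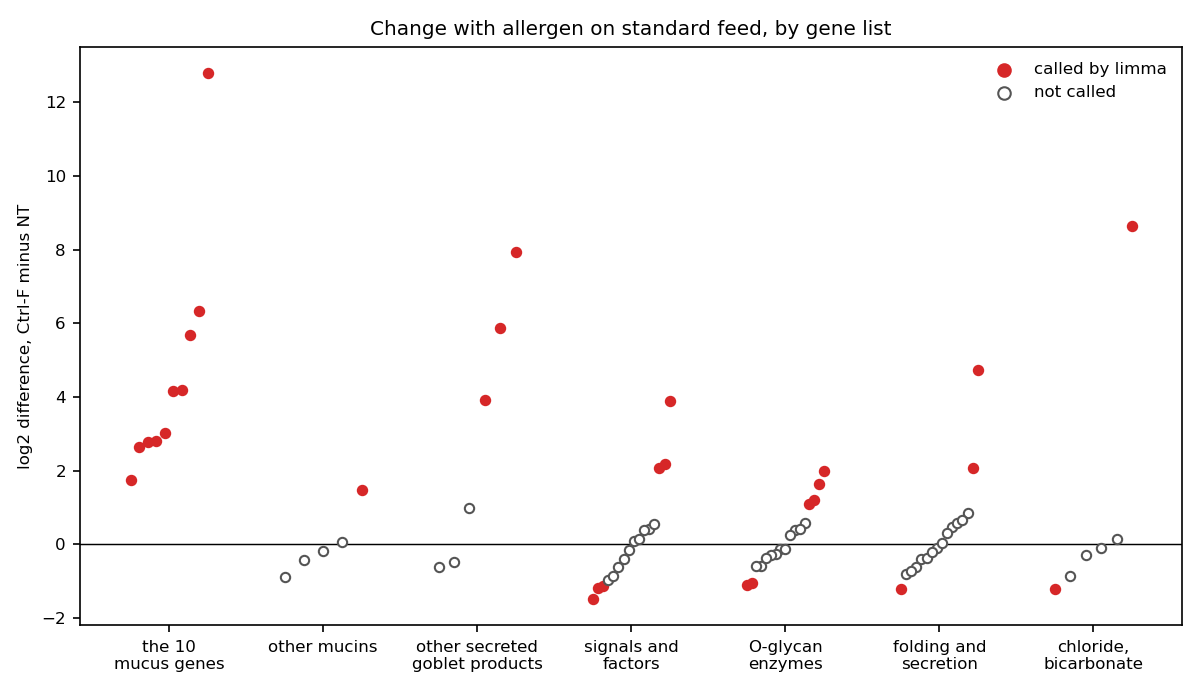
Log2 difference of Ctrl-F from NT (vertical axis) for the 10 mucus genes and for 6 lists of related genes (horizontal axis), 1 point per gene tested and filled where limma called it. The 10 mucus genes lie between 1.74 and 12.79, and in the other lists the points lie on both sides of 0.

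Most club cell markers moved the other way from the mucus genes against NT. Of 6, 4 were called lower with Ctrl-F, 3 with Cap-F and 3 with ODNcap-F, and 1 was called higher in ODNcap-F. Over all genes, 12.2%, 9.87% and 10.8% were called lower in these groups. Scgb3a2, a secretoglobin, differed by -4.12 ± 0.23 in Ctrl-F (limma adjusted p = 6.57e-05), Cyp2f2 by -1.95, Aldh1a1 by -1.94 and Cbr2 by -1.07. Scgb3a1, a secretoglobin made by airway secretory cells, was the one called higher, at 2.54 ± 0.87 in ODNcap-F (limma adjusted p = 0.0467), and the NT mice differed by 2.74 for it, at 11.80 and 14.54. Scgb1a1 was not called, at 17.64 in both NT mice and 17.52 to 17.64 in the OVA mice, near the top of the scale. Of 6 ciliated cell markers, 2 were called lower in each OVA group, Tppp3 by -1.99 and Sec14l3 by -1.66 in Ctrl-F, and none higher. No pan-epithelial and no alveolar type 2 marker was called. Among these 6 lists of related genes and 6 marker lists, no gene was called between feeds.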

How the data were processed

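Lung RNA of 8 mice was hybridized to 8 single-color Agilent arrays, all on 1 slide and scanned once. The authors deposited, per array, background-subtracted spot intensities from Agilent Feature Extraction 11.0, with quality flags and no normalization between arrays, and a table of quantile-normalized log2 values for 32312 probes, which was used as an alternative. Here control spots and 792 flagged spot values were left out, log2 intensities were averaged per probe and quantile normalized, and of 56605 probes the test kept 37116, which had signal well above background in both mice of 1 or more groups. The scanner output holds accessions, and names came from a RefSeq table (65.4% of kept probes). The brightest probe stands for a gene. The GEO titles gave groups and mouse numbers.

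One fit in limma 3.58.1, run in R 4.3.3, over 4 groups, with no covariate, gave 7 comparisons. Calls needed an adjusted p (Benjamini-Hochberg, over all kept probes) under 0.05 and a fold change over 2. Residual degrees of freedom were 4, and moderation added 1.96. Where a group lay below background, folds are bounds against the lowest signal well above background. The study's local-pooled-error test was rebuilt from its definition (100 bins, a spline of 10 degrees of freedom). Both were tested on simulated data.

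The 10 genes, 6 lists of related genes and 6 marker lists were chosen with earlier results of these data known. Named from the lists were up to 4 called genes per list and comparison in order of p and the 2 brightest uncalled. Foxa1, St6galnac1, the members of the ciliated list and the feed difference of Il13 were added after values were seen. For the list of mucin folding and secretion, calls in the lower direction are not reported here. Genes with the highest Pearson r to the mean of the 10 genes, 10 over 6 mice and 5 over 8 mice, were also named. Alternatives were scaling to the 75th percentile, normexp with an offset of 50, the deposited table, 2 other filters, the mouse number as a block, an intensity trend, fits of only the groups compared, the mean of a gene's probes, an unadjusted p, the local-pooled-error test and each mouse left out. Promoter windows are from RefSeq, GRCm38.p6. The number of arrays limits the precision.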

Additional observations from a re-analysis of the deposited data

How the results depend on the processing

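The counts of the 10 genes called against NT stayed at 7 to 10 under every alternative for Ctrl-F, Cap-F and ODNcap-F. They were 7 with the deposited table and with only probes well above background in all 8 mice, which hold 7 of the 10 genes. With normexp they were 8 for Ctrl-F and Cap-F, where Foxa3 and Gcnt3 lost their calls, and without NT mouse 1 the count for Ctrl-F was 9. Between feeds no alternative called any of the 10, except for ODNcap-F against Ctrl-F, with 1 at an unadjusted p and 6 by the local-pooled-error test. With the mouse number as a replicate block the counts were 10 against NT for each OVA group and 0 for each comparison of feeds. Deviations of same-numbered mice correlated at -0.01 to 0.16 over probes in the 6 pairs of groups, with the 0.16 for Cap-F and ODNcap-F. A correlation over all probes cannot show whether same-numbered mice share something that acts on few genes, such as these 10. With 1 mouse left out, the fit took the lone mouse to vary as mice of other groups did, and differences between feeds turned for these genes. For ODNcap-F against Cap-F, log2 differences ranged from -0.49 to 1.31 for Muc5ac, -0.18 to 1.07 for Muc5b, -0.04 to 0.44 for Clca1, -0.06 to 0.86 for Spdef, -0.13 to 0.72 for Foxa3, -0.08 to 1.14 for Agr2, -0.30 to 1.0 for Fcgbp, -0.32 to 0.94 for Tff2, -0.06 to 1.31 for Itln1 and -0.12 to 1.38 for Gcnt3, with all 10 below 0 without Cap-F mouse 1. For Cap-F against Ctrl-F they ranged from -0.25 to 1.55 for Muc5ac, -0.10 to 0.39 for Clca1, -0.23 to 0.69 for Spdef, -0.32 to 1.05 for Itln1 and -0.23 to 1.26 for Gcnt3, and these 5 were below 0 without Cap-F mouse 2. The cause was not tested. Foxa3, Gcnt3 and 1 NT value of Clca1 lay at background, which limits the size of their rise.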

Other observations

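Genes listed as markers of gland serous cells and of eosinophils were measured beside the mucus genes, in whole lung RNA that does not show which cells made them. Of 5 serous markers, 2 were called higher than NT in each OVA group and none lower. Over all genes, 9.74% to 10.5% were called higher and 9.87% to 12.2% lower. Ltf, which encodes lactoferrin, read 9.62 and 10.11 in the NT mice, 12.56 and 12.35 on Ctrl-F, 12.21 and 12.76 on Cap-F, and 12.63 and 13.05 on ODNcap-F. Dmbt1, a scavenger receptor protein of mucosal fluids, was not well above background in NT. It entered the test only through OVA mice, so a difference from NT was built into its selection. Dmbt1 was at least 7.42-fold higher in Ctrl-F, 5.58-fold in Cap-F and 8.43-fold in ODNcap-F. Lyz1 and Pigr were not called.

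Of 6 eosinophil markers, 5 were called higher than NT in each OVA group, beside 9.74% to 10.5% of all genes. Prg2, a granule protein, rose by 3.77 ± 0.44 in Ctrl-F (limma adjusted p = 0.000746), and Epx, the eosinophil peroxidase gene, was at least 27.2-fold higher from background. Epx entered the test only through OVA mice, so its difference from NT was built into its selection. Unlike the 10 mucus genes, the eosinophil list did not have ODNcap-F mouse 2 as its highest mouse, since its mean level there was 11.08, the lowest of the 6 OVA mice.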
